A study of Mus musculus with 14 samples.

Results

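The genes described here are 9 mouse liver genes of glucose production and glycogen metabolism, Pck1, G6pc, Fbp1, Pklr, Slc2a2, Gys2, Pygl, Ppp1r3b and Ppp1r3c. They were chosen by name and function out of 24411 genes named in the count files, with earlier results of these data known. All 9 were among the 9644 genes with enough reads to be tested. RNA was sequenced from the livers of male littermates aged 5 to 7 months, and every mouse carried floxed Rbbp5 alleles on both chromosomes. WT mice had no Alb-Cre. LKO mice (spelled RRBP5 LKO in the sample labels and RBBP5 LKO in the design text) were heterozygous for Alb-Cre. This recombinase is driven by the albumin promoter, so that deletion is directed to hepatocytes. Rbbp5 in other liver cells was not measured separately. The Rbbp5 protein is a core part of the enzyme complexes that place methyl groups on lysine 4 of histone H3. Mice of each genotype were injected into the peritoneum with tunicamycin at 0.05 mg/kg, which blocks N-linked glycosylation and stresses the endoplasmic reticulum (ER), or with the vehicle alone, 3% DMSO in PBS, in a volume of 500 µl. The injection took place from 9 to 10 am, and the animals were dissected after 8 h. WT mice gave 3 libraries with vehicle and 3 with tunicamycin, and LKO mice gave 4 of each.

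The liver buffers blood glucose by making it from lactate, amino acids and glycerol, and by storing it as glycogen and releasing it again. Pck1 (cytosolic phosphoenolpyruvate carboxykinase), Fbp1 (fructose-1,6-bisphosphatase) and G6pc (the catalytic subunit of glucose-6-phosphatase) are enzymes of gluconeogenesis, and Slc2a2 encodes GLUT2, the hepatocyte's main glucose transporter. Pklr, the liver form of pyruvate kinase, catalyses the last step of glycolysis, opposite to the direction of Pck1. Gys2 is liver glycogen synthase, Pygl is liver glycogen phosphorylase, and Ppp1r3b and Ppp1r3c are subunits that bring protein phosphatase 1 to glycogen, where it favours synthesis. Hormones control several of these genes at the level of transcription, with insulin and glucose favouring Pklr, and glucagon and fasting favouring Pck1 and G6pc.

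The promoters of Pklr, Slc2a2 and Pygl are shown because these 3 genes followed each other most closely across all 13 samples, group differences included. That of Pck1 is shown because, by the same measure, it varied with little relation to them. Each line holds the 250 bases before a RefSeq start site on the strand of the gene (5′ to 3′, build GRCm38.p6), in lower case, with motif matches on either strand in capitals.
Pklr, downstream start, chr3:89136373-89136622, plus strand: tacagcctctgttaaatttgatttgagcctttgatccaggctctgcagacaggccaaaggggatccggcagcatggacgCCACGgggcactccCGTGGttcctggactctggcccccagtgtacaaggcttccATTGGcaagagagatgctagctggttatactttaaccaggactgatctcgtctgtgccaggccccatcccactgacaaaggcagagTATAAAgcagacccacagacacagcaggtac
Slc2a2, chr3:28697653-28697902, plus strand: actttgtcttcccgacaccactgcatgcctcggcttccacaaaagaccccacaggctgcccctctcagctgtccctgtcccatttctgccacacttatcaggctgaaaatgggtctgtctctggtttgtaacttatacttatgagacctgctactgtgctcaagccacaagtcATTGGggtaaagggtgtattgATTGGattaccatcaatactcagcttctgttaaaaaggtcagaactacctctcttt
Pygl, chr12:70227684-70227933, minus strand: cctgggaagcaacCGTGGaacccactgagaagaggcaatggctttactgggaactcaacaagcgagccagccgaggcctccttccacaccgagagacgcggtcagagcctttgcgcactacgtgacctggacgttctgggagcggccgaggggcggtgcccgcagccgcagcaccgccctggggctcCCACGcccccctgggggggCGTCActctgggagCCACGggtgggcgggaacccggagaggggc
Pck1, chr2:173152823-173153072, plus strand: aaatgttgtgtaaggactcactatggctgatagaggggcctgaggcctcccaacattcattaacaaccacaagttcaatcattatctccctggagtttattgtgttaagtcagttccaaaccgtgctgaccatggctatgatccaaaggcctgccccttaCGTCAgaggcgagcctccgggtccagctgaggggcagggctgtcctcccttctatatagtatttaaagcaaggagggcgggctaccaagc
RefSeq windows were found for 7 of the 9 genes. The motifs searched on both strands were TGACG (the core of the cAMP response element), TGACGTC (a longer form that contains this core), the E-box CACGTG, the shorter string CCACG, the CCAAT box (CCAAT), the TATA box as TATAAA, and the forkhead motif TGTTTAC. The window of Pklr held CCACG at 171 to 167 bases before the start, its reverse complement at 157 to 153, CCAAT reversed at 117 to 113, and TATAAA at 31 to 26. The upstream start of Pklr had none of the 7 motifs in its window. Slc2a2 held CCAAT reversed at 77 to 73 and at 56 to 52 bases before its start. Pygl held CCACG at 63 to 59 and 30 to 26, its reverse at 237 to 233, and TGACG reversed at 44 to 40. Pck1 held TGACG reversed at 90 to 86 bases before its start and no other of these motifs. Among all 32851 RefSeq promoter windows of this length, 28.3% held CCACG, 33.9% held CCAAT, 12.4% held TATAAA and 17.8% held TGACG, so each is a common string of letters. The E-box CACGTG, found in 6.02% of all windows, was matched by Ppp1r3c alone among these genes, at 104 to 99 bases before its start. TGACGTC (2.78% of all windows) and TGTTTAC (3.17%) were found in none of the windows of these genes.

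The libraries held 6507018 to 13519421 reads on the sense strand of genes, of which 72.5 to 75.5% came from the ribosomal RNA gene Rn45s, so 1704479 to 3551398 reads per library were left for all other genes. The reads of LKO vehicle libraries 3 and 4 were nearly as alike as sampling allows (chi-square of 1.122 per degree of freedom, against 3.38 to 25.9 for the 17 other pairs of replicates), so their counts were added and treated as a single sample, for 13 samples in all. The labels do not tie each library to a mouse, and p-values measure only the spread between these samples. In bulk liver, fewer hepatocytes and less RNA per hepatocyte cannot be told apart. Values below are CPM (counts scaled to a common library size, with TMM) unless FPKM is named, and are given as mean ± SD. The library size includes Rn45s, so CPM levels are lower than they would be per read of the other genes. Rbbp5, the targeted gene (chromosome 1, 132477348 to 132505665), averaged 5.19 ± 1.17 with vehicle and 5.36 ± 0.342 after tunicamycin in WT mice (n = 3 each), and 2.94 ± 1.13 (n = 3) and 2.86 ± 0.597 (n = 4) in LKO mice. LKO was 0.87 lower on the log2 scale with vehicle (adjusted p = 0.329, edgeR) and 0.90 lower after tunicamycin (adjusted p = 0.105), so neither difference passed the test, and LKO vehicle 1, at 4.14, lay within the WT vehicle range of 4.07 to 6.40. Reads over the whole gene were counted, and the counts do not separate floxed exons from the rest.

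Libraries that stood apart were checked before the members were compared. Hspa5, the ER chaperone BiP, was at 196.4, 210.3 and 252.4 in WT vehicle 1 to 3 and at 852.9, 312.6 and 784.3 in WT tunicamycin 1 to 3. Ddit3, the stress-induced transcription factor CHOP, was at 26.2 and 20.3 in WT tunicamycin 1 and 3 and at 1.30 in WT tunicamycin 2, inside the WT vehicle range of 0.640 to 1.89. Sdf2l1, another ER stress gene, was at 10.85 in WT tunicamycin 2, above the WT vehicle range of 4.73 to 5.26. Herpud1 (60.5) and Dnajb9 (26.7), also ER stress genes, lay there below the WT vehicle ranges of 103.0 to 141.4 and 34.2 to 47.7. WT tunicamycin 2 therefore had the smallest rise of Hspa5 and Ddit3, while WT tunicamycin 3 had a large one. For the 9 genes described here, the order was another: the median log2 distance of the 9 from the mean of WT vehicle was −0.79 in WT tunicamycin 1, −0.62 in WT tunicamycin 2 and −0.14 in WT tunicamycin 3. In LKO mice, Hspa5 was at 127.0, 116.3 and 172.7 with vehicle and at 228.3, 141.7, 181.1 and 207.2 after tunicamycin, so LKO tunicamycin 2 lay within the LKO vehicle range. The same median distance of the 9 genes was −0.39, −0.24 and 0.11 in LKO vehicle and ran from −0.76 to −0.37 in LKO tunicamycin samples, where LKO tunicamycin 4, at −0.37, was no lower than LKO vehicle 1. These ER stress genes were chosen for this check with their values known.

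By length-scaled level, Pck1 was the highest of the 9 genes and Ppp1r3c the lowest in all 4 groups. The level of Pck1 in WT vehicle was 140.6 ± 18.0 FPKM (n = 3), followed by Fbp1 at 48.2 ± 4.02, Slc2a2 at 18.6 ± 2.78, G6pc at 11.1 ± 4.12 and Pygl at 10.5 ± 2.01 FPKM. Ppp1r3b was at 8.28 ± 0.258, Pklr at 7.94 ± 1.90, Gys2 at 6.34 ± 1.32 and Ppp1r3c at 1.37 ± 0.456 FPKM. Neighbours from G6pc down to Gys2 in this order were closer than the larger of their SDs, except Pygl and Ppp1r3b, whereas the steps from Pck1 to Fbp1, from Fbp1 to Slc2a2, from Slc2a2 to G6pc and from Gys2 to Ppp1r3c were larger than the SD of either gene. The genes also differed in how much samples of a group varied. The mean coefficient of variation within groups was 9.90% for Fbp1, 14.1% for Pygl, 15.2% for Ppp1r3b, 16.9% for Pck1 and 22.0% for Gys2, but 32.5% for Pklr, 34.9% for Slc2a2, 39.0% for Ppp1r3c and 40.4% for G6pc.

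Tunicamycin was compared with vehicle in each genotype to find how an acute ER stress moved these transcripts and whether loss of Rbbp5 altered that. The fitted change was below 0 for all 9 genes in WT and for all 9 in LKO mice. It was nearest to 0 for Fbp1, at −0.006 in WT and −0.07 in LKO. With single samples left out, the sign changed for G6pc and Fbp1 in WT and for Fbp1 and Ppp1r3c in LKO. Among all genes tested, 48.3% had a change below 0 in WT, 49.2% in LKO and 30.7% in both genotypes. No member passed the test within either genotype (0 of 9 in each, edgeR quasi-likelihood test with Benjamini-Hochberg adjustment over all genes), where 0.363% of all genes were called in WT and 0.0311% in LKO. At an unadjusted p under 0.05 and with a negative change there were 5 of 9 members in WT (6.86% of all genes) and 3 of 9 in LKO (6.33% of all genes). DESeq2 called 0 members in WT and 1 in LKO, Ppp1r3b. It gave an adjusted p to 4907 genes in WT, of which 3.12% were called. In LKO only 811 genes had one, of which 5.67% were called. The median change of the 9 was −0.46 on the log2 scale in WT and −0.51 in LKO, against 0.01 and 0.00 for all genes. Because both genotypes moved in the same direction, the mean of the 2 tunicamycin effects was also tested, a contrast chosen after the separate values were seen. At an unadjusted p under 0.05 it held 6 of 9 members, all lower (9.93% of all genes). In that contrast 2 of 9 members passed the adjusted test, Ppp1r3b and Gys2, both lower, while 4.31% of all genes were called and 2.15% were called lower. Of the genes called, 209 were higher and 207 lower, but with total count scaling 153 were higher and 657 lower, and in WT 28 and 7 became 33 and 115.

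**Figure D1:**
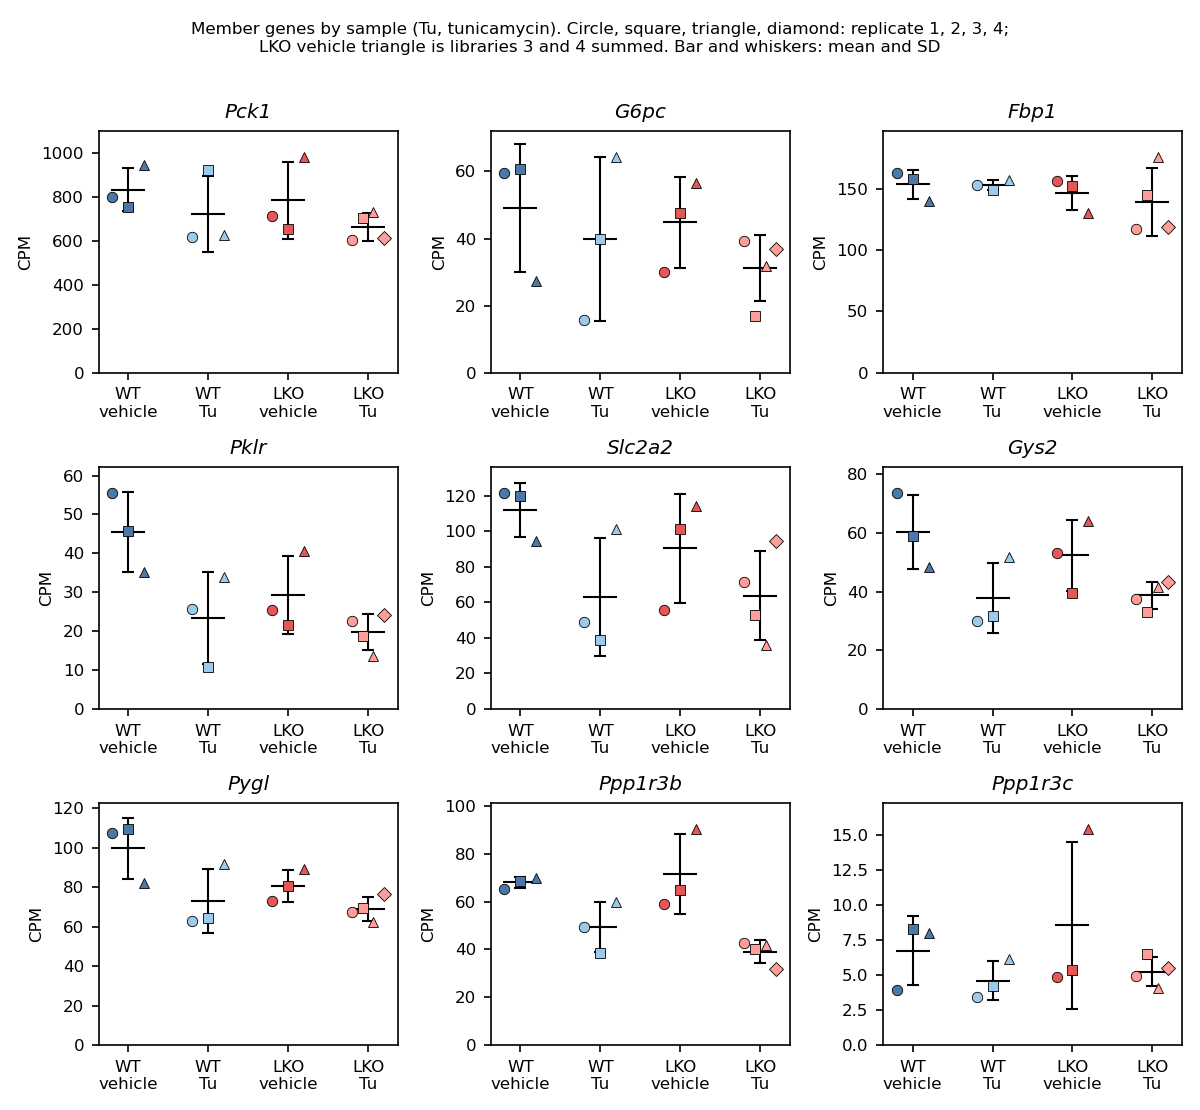
CPM of each of the 9 genes (vertical axis, from 0) in the 13 samples of the 4 groups (horizontal axis, Tu for tunicamycin), with the mean and SD of each group. Ppp1r3b after tunicamycin lies below every vehicle sample of its own genotype, and WT tunicamycin 3 (triangle) is the highest of its group for every gene but Pck1.

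Ppp1r3b (chromosome 8, 35375694 to 35388139), which encodes the glycogen-targeting subunit most abundant in liver, gave the firmest change of the 9. In WT mice its level was 65.4, 68.7 and 70.1 with vehicle and 49.5, 38.7 and 59.8 after tunicamycin. In LKO mice it was 59.1, 65.0 and 90.5 with vehicle and 42.7, 40.1, 41.7 and 31.9 after tunicamycin. Tunicamycin and vehicle samples did not overlap in either genotype, and the highest vehicle value belonged to the summed LKO libraries 3 and 4. Of all genes, 8.68% were lower without overlap in WT and 6.55% in LKO. The log2 fold change was −0.46 ± 0.17 (SE; 95% interval −0.83 to −0.09; adjusted p = 0.218, edgeR) in WT and −0.88 ± 0.16 (−1.21 to −0.54; adjusted p = 0.0920) in LKO mice. Averaged over genotypes Ppp1r3b fell by 0.67 ± 0.12 (SE) on the log2 scale, to a level 37.1% lower (adjusted p = 0.0124, edgeR). Over the 24 alternative settings of this averaged contrast the adjusted p ran from 3.85e-05 to 0.0602, and 22 of them called the gene.

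The call within LKO mice depended on single libraries and on the tool. Ppp1r3b was called there by DESeq2, without a filter on low counts, with the 14 libraries kept apart and without WT tunicamycin 3 (−0.88, adjusted p = 0.0119, edgeR). Keeping the 14 libraries apart counts the nearly identical LKO vehicle libraries 3 and 4 as 2 samples. Without the summed LKO vehicle sample the LKO change was −0.67 (adjusted p = 0.374). Without LKO vehicle 1, the sample whose Rbbp5 level lay in the WT range, it was −0.99 (adjusted p = 0.0994). The averaged contrast kept its call for Ppp1r3b without each of these samples, at −0.57 (adjusted p = 0.0298, edgeR) without the summed sample and −0.74 (adjusted p = 0.0150) without LKO vehicle 1, and also without WT tunicamycin 2, at −0.59 (adjusted p = 0.0263).

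Gys2 (chromosome 6, 142422612 to 142473130), the enzyme that extends glycogen chains, fell in the averaged contrast, as Ppp1r3b did. WT vehicle samples were at 73.8, 58.8 and 48.5, and WT tunicamycin samples at 30.1, 31.7 and 51.8. LKO vehicle samples were at 53.4, 39.7 and 64.1, and LKO tunicamycin samples at 37.4, 33.0, 41.5 and 43.2. In both genotypes the groups overlapped, in WT through tunicamycin 3 and vehicle 3 and in LKO through vehicle 2. The log2 fold change was −0.68 ± 0.21 (SE; adjusted p = 0.153, edgeR) in WT and −0.43 ± 0.20 (adjusted p = 0.390) in LKO mice. Averaged over genotypes Gys2 fell by 0.55 ± 0.15 on the log2 scale, or 31.9% (adjusted p = 0.0406, edgeR). This call was held by 13 of 24 alternatives (adjusted p from 0.00164 to 0.121) and was lost when WT vehicle 1 or 2, WT tunicamycin 1, or LKO tunicamycin 1, 2 or 3 was left out, as well as without WT tunicamycin 2 (−0.49, adjusted p = 0.105), LKO vehicle 1 (−0.56, adjusted p = 0.0666) and the summed LKO vehicle sample (−0.47, adjusted p = 0.101).

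Pygl (chromosome 12, 70190815 to 70227683), which breaks glycogen down, had estimates in the same direction as Gys2. It was at 107.5, 109.6 and 82.0 in WT vehicle and at 63.1, 64.4 and 92.0 in WT tunicamycin samples, so tunicamycin 3 lay above vehicle 3. LKO vehicle samples were at 72.9, 80.4 and 89.0 and LKO tunicamycin samples at 67.4, 69.6, 62.3 and 76.5. The fitted change was −0.45 ± 0.16 (SE; adjusted p = 0.199, edgeR) in WT, −0.23 ± 0.15 (adjusted p = 0.582) in LKO and −0.34 ± 0.11 (adjusted p = 0.0852) averaged over genotypes. The ratio of Pygl to Gys2 CPM was 1.67 ± 0.204 in WT vehicle, 1.97 ± 0.169 in WT tunicamycin, 1.59 ± 0.373 in LKO vehicle and 1.80 ± 0.250 in LKO tunicamycin samples, with overlapping ranges in every pair of groups. Ppp1r3c (chromosome 19, 36731731 to 36736604), the other glycogen-targeting subunit, rested on 25 to 261 reads per sample. Its highest value, 15.5 in the summed LKO vehicle sample, stood above the 3.43 to 8.32 of the 12 others, and the averaged change of −0.66 ± 0.28 (adjusted p = 0.192, edgeR) did not pass the test. Without the summed sample its LKO change was 0.02, in place of −0.77.

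Pklr (chromosome 3, 89136122 to 89146815), whose promoter is printed first above, had the most negative estimate of the 9 in WT mice. Its level was 55.6, 45.7 and 35.2 in WT vehicle and 25.7, 10.7 and 33.9 in WT tunicamycin samples. These groups did not overlap, although WT tunicamycin 3 and WT vehicle 3 were close to each other. In LKO mice it was 25.6, 21.6 and 40.6 with vehicle and 22.5, 18.8, 13.7 and 24.2 after tunicamycin, and these groups overlapped. LKO vehicle 1 and 2 lay within the range of the WT tunicamycin samples. The log2 fold change was −0.96 ± 0.32 (SE; adjusted p = 0.168, edgeR) in WT, −0.57 ± 0.29 (adjusted p = 0.453) in LKO and −0.76 ± 0.22 (95% interval −1.22 to −0.31; adjusted p = 0.0522) averaged over genotypes, just outside the threshold of 0.05.

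Slc2a2 (chromosome 3, 28697903 to 28728361) varied widely between samples of the same group. It was at 121.8, 119.9 and 94.5 in WT vehicle, and at 49.2, 39.0 and 101.2 in WT tunicamycin samples. LKO vehicle samples were at 56.0, 101.3 and 114.4, and LKO tunicamycin samples at 71.6, 52.7, 36.2 and 94.4. In each genotype at least 1 tunicamycin sample lay within the vehicle range. The fitted change was −0.83 ± 0.35 (SE; adjusted p = 0.275, edgeR) in WT, −0.51 ± 0.32 (adjusted p = 0.566) in LKO and −0.67 ± 0.24 (adjusted p = 0.115) averaged over genotypes.

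WT tunicamycin 3 decided the count of calls in WT mice. Without it, 5 members were called lower by edgeR: Slc2a2 (−1.34, adjusted p = 0.0241), Pklr (−1.31, adjusted p = 0.0269), Gys2 (−0.97, adjusted p = 0.00968), Pygl (−0.65, adjusted p = 0.0160) and Ppp1r3b (−0.63, adjusted p = 0.0494). All genes called in WT then numbered 615 of 9941 (6.19%) in place of 35 (0.363%). WT tunicamycin 3 was singled out after the values of the members were seen, because they lay nearest to WT vehicle in it. Leaving it out lowers the estimates of these 5 genes by that choice, so their calls are no separate support. The averaged contrast likewise called these 5 genes without this sample, of 1085 genes in all (10.9%). Without WT tunicamycin 2, the sample with the small rise of Hspa5 and Ddit3, 0 members were called in WT (3 at an unadjusted p under 0.05, edgeR), where 34 genes were called in all and 12.0% reached that unadjusted p. In the averaged contrast 1 member, Ppp1r3b, was called then, of 207 genes in all (2.08%).

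None of the 3 enzymes of gluconeogenesis passed the test in any tunicamycin contrast (edgeR), and their difference from the other members was not tested. Pck1 (chromosome 2, 173153073 to 173159274) was at 802.7, 755.8 and 945.8 in WT vehicle and at 616.9, 924.8 and 629.2 in WT tunicamycin samples. LKO vehicle samples were at 715.9, 654.2 and 984.5 and LKO tunicamycin samples at 606.9, 704.5, 731.4 and 615.1. The groups overlapped in both genotypes, and WT tunicamycin 2 was as high as the vehicle samples. The averaged change was −0.22 ± 0.14 (95% interval −0.51 to 0.06; adjusted p = 0.383, edgeR), which leaves room for a decrease of up to 0.51 on the log2 scale. Fbp1 (chromosome 13, 62864753 to 62888298) was the steadiest gene, between 116.9 and 176.0 in all 13 samples, with an averaged change of −0.04 ± 0.11 (95% interval −0.26 to 0.18; adjusted p = 0.879). G6pc (chromosome 11, 101367716 to 101377903) was at 59.4, 60.6 and 27.2 in WT vehicle, 15.7, 39.8 and 64.4 in WT tunicamycin, 30.05, 47.7 and 56.7 in LKO vehicle, and 39.2, 17.02, 31.9 and 36.7 in LKO tunicamycin samples. The WT tunicamycin samples of G6pc thus spanned from below to above all WT vehicle samples, and the averaged change of −0.42 ± 0.27 (95% interval −0.996 to 0.16; adjusted p = 0.428, edgeR) was not resolved. The ratio of Pck1 to Pklr CPM was 14.4 to 26.8 in WT vehicle, 18.6 to 86.6 in WT tunicamycin, 24.3 to 30.2 in LKO vehicle and 25.4 to 53.3 in LKO tunicamycin samples.

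**Figure D2:**
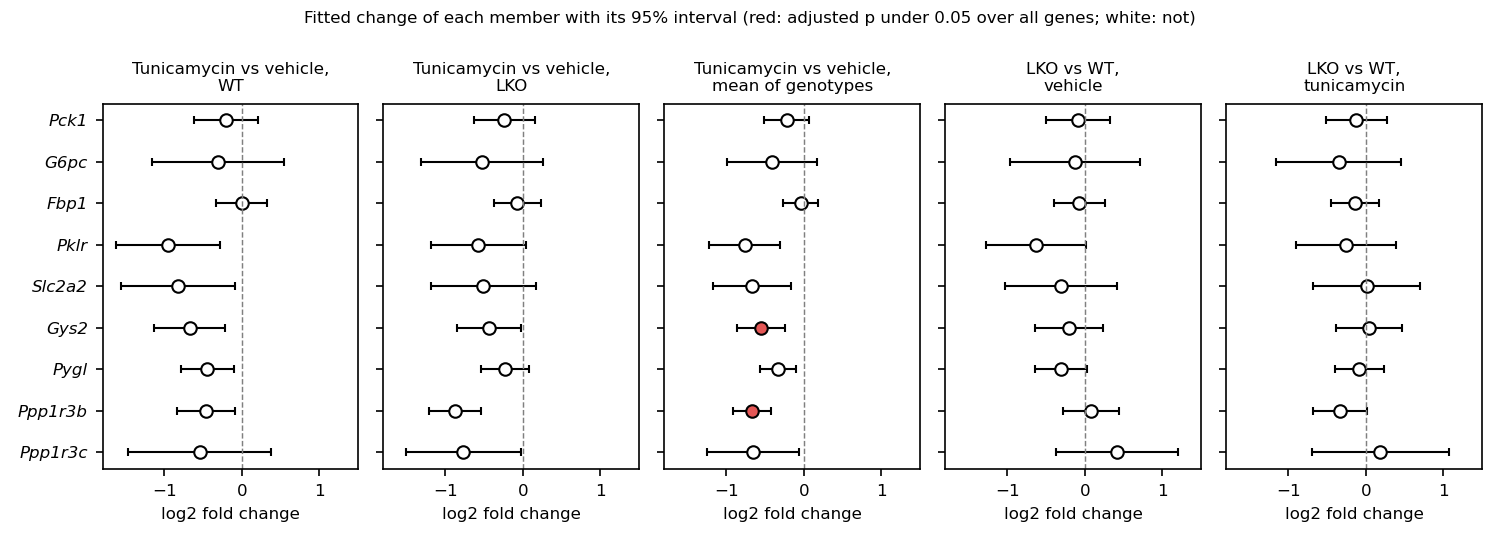
Fitted log2 fold change (horizontal axis, 0 dashed) of each of the 9 genes with its 95% interval, for tunicamycin against vehicle in WT, in LKO and averaged over both, and for LKO against WT under each treatment. All points of the first 3 panels are below 0, and only Gys2 and Ppp1r3b in the averaged contrast pass the adjusted test.

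LKO and WT mice were compared within each treatment, and the levels of the 9 genes were not separable by genotype. With vehicle, 0 of 9 members were called (edgeR; 0 by DESeq2), against 0.0415% of all genes. No member reached an unadjusted p under 0.05 (8.18% of all genes) and for none were the groups free of overlap (15.1% of all genes). The estimate farthest below 0 was that of Pklr, −0.63 ± 0.30 (95% interval −1.28 to 0.01; adjusted p = 0.616), followed by Slc2a2 and Pygl at −0.30 each. Ppp1r3c had the highest estimate, 0.41 ± 0.37 (adjusted p = 0.815, edgeR), and it was −0.38 without the summed LKO vehicle sample. After tunicamycin 0 of 9 were called again (edgeR; 0 by DESeq2), against 0.861% of all genes. Again 0 members reached an unadjusted p under 0.05 (15.8% of all genes) and 0 were free of overlap (12.9% of all genes). Ppp1r3b was at 39.1 ± 4.94 in LKO (n = 4) and 49.3 ± 10.5 in WT tunicamycin samples (n = 3), a difference of −0.34 ± 0.16 (95% interval −0.68 to 0.01; adjusted p = 0.333, edgeR). Gys2 and Slc2a2 differed by 0.04 and 0.01, with intervals of −0.39 to 0.47 and −0.68 to 0.70.

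The difference between the tunicamycin effects in LKO and WT was tested as an interaction. No gene was called at all (0.0% of all genes, with 474, or 4.91%, at an unadjusted p under 0.05, edgeR), and of the 9 members 0 reached an unadjusted p under 0.05. For Ppp1r3b the interaction was −0.41 ± 0.24 (95% interval −0.91 to 0.09; adjusted p = 0.981), the tunicamycin effect being more negative in LKO. For Pklr, Slc2a2, Gys2 and Pygl the effect was less negative in LKO, by 0.38, 0.32, 0.24 and 0.22, with standard errors of 0.43, 0.47, 0.29 and 0.22. These intervals do not show that the genotypes respond alike: that of Pklr reached from −0.53 to 1.30.

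**Figure D3:**
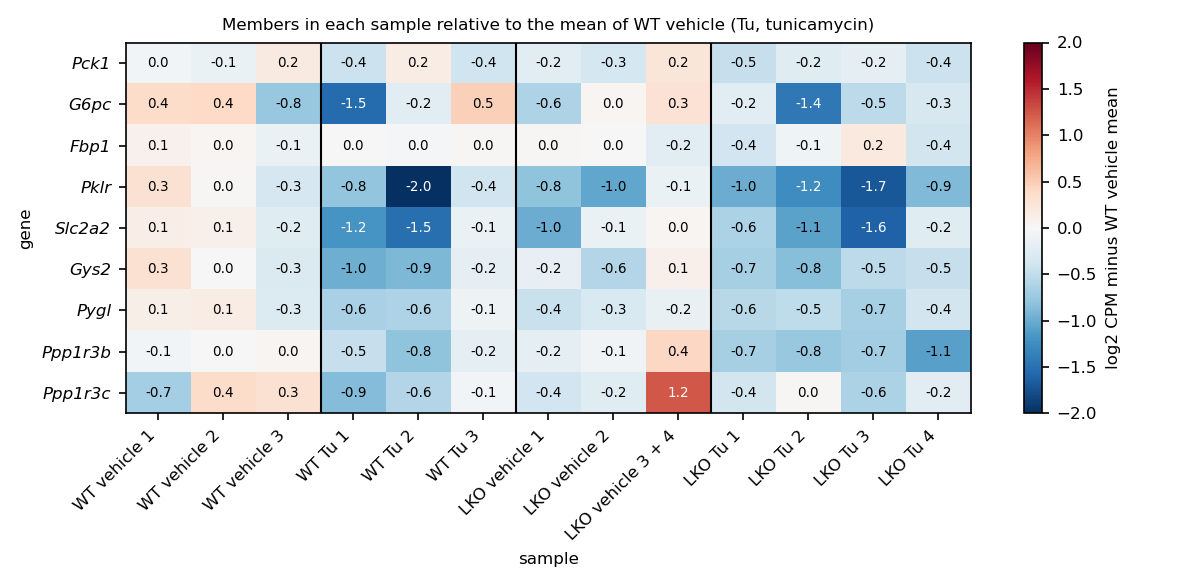
Log2 CPM of each of the 9 genes (rows) in each of the 13 samples (columns), minus the mean of WT vehicle. Pklr, Slc2a2, Gys2, Pygl and Ppp1r3b are below that mean in all 7 tunicamycin samples. Pklr and Pygl are also below it in every LKO vehicle sample, and Slc2a2, Gys2 and Ppp1r3b in LKO vehicle 1 and 2. WT tunicamycin 3 is within 0.5 of that mean for all 9 genes. The share of all genes below it in every tunicamycin sample was not counted.

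Across the 13 samples the log2 CPM of 33 of the 36 pairs of members had a positive correlation (median r = 0.46, range −0.34 to 0.89). These correlations are descriptions: the samples share treatments and group structure. Slc2a2 and Pygl were closest to each other (r = 0.89), and Pklr followed with Pygl (r = 0.86) and with Slc2a2 (r = 0.85). Within groups, after subtraction of each group's mean, Slc2a2 and Pygl had r = 0.83 and Pklr and Slc2a2 r = 0.75. Pklr and Pygl then had r = 0.70, below G6pc and Pygl (0.73) and Gys2 and Pygl (0.73). Over all 13 samples the 3 negative pairs all held Fbp1, with Ppp1r3c (−0.34), Slc2a2 (−0.25) and Pklr (−0.02). Pck1 and Slc2a2 were nearly unrelated over these samples (r = 0.08). Within groups, Pck1 had r = −0.41 with Pklr, −0.37 with Slc2a2 and −0.28 with Pygl. Of all 9644 genes tested, those most like Pklr were Rgs16 (r = 0.95), Tkfc (0.94) and Mbnl1 (0.93). Those most like Gys2 were Kat2b (0.94), Ugp2 (0.93) and Ptprd (0.93), and those most like Pck1 were Acot4 (0.86), Notch1 (0.84) and Slc25a51 (0.83), each over 13 samples.

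Genes around these members were read from lists fixed by function. Of 18 other glycogen genes tested, 10 had a positive and 8 a negative estimate in each genotype, and the median was 0.06 in WT and 0.04 in LKO, unlike the 9 members themselves. In the averaged contrast 2 of the 18 passed the test (edgeR; 4.31% of all genes), in opposite directions. Ugp2, which makes the UDP-glucose used by glycogen synthase, was at 107.8 ± 14.2 in WT vehicle, 65.4 ± 26.5 in WT tunicamycin, 82.0 ± 18.2 in LKO vehicle and 53.4 ± 5.37 in LKO tunicamycin samples. It fell by 0.67 ± 0.15 on the log2 scale (adjusted p = 0.0225, edgeR), as much as Ppp1r3b. The gene named Pgm1 in the files rose by 1.06 ± 0.24 (adjusted p = 0.0231) from a level of 0.359 to 3.08 CPM over all samples. RefSeq now gives that locus on chromosome 5 the symbol Pgm2, and the abundant phosphoglucomutase of these livers (named Pgm2 in the files, 30.2 to 43.5 CPM) was not called.

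For glycolysis and pyruvate use, estimates lay mostly on the same side as those of the members: 16 of 18 genes tested were below 0 in WT and 16 of 18 in LKO, with medians of −0.28 and −0.25. In the averaged contrast 2 of the 18 passed (edgeR), both lower, where 2.15% of all genes were called lower. Pfkfb3, which makes the activator of phosphofructokinase, fell by 0.79 ± 0.21 on the log2 scale (adjusted p = 0.0429, edgeR), and Pdha1, a subunit of pyruvate dehydrogenase, fell by 0.40 ± 0.11 (adjusted p = 0.0460). Of 18 other genes of gluconeogenesis and the shared triose steps, 15 were below 0 in each genotype, with medians of −0.10 and −0.20. There 2 passed in the averaged contrast (edgeR; 4.31% of all genes). Slc37a4, the transporter that feeds glucose-6-phosphate to G6pc inside the ER, fell by 0.43 ± 0.11 (adjusted p = 0.0382, edgeR). Ldha, lactate dehydrogenase A, rose by 0.51 ± 0.12 (adjusted p = 0.0269), from 94.0 ± 5.96 to 137.0 ± 31.0 in WT and from 97.3 ± 21.6 to 134.7 ± 8.76 in LKO. Each of these list genes was called in 11 to 17 of its 24 alternatives (23 for Pgm1).

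Among 29 regulators and hormone signalling genes tested, 20 had a negative estimate in WT and 19 in LKO. In the averaged contrast 3 passed (edgeR), all lower, where 2.15% of all genes were called lower. They were Foxo3, a forkhead factor downstream of insulin (−0.49 ± 0.12, adjusted p = 0.0321, edgeR), and Ppara, the nuclear receptor of the fasting response (−0.44 ± 0.12, adjusted p = 0.0406). Txnip, a glucose-responsive inhibitor of glucose uptake, was also among them (−0.94 ± 0.25, adjusted p = 0.0423). The LKO change of Txnip, however, was 0.11 without the summed LKO vehicle sample. After tunicamycin, LKO and WT differed in 2 of the 29 regulators (edgeR; 0.861% of all genes). Hnf4a, a hepatocyte factor that acts on many of these genes, was at 164.0 to 182.6 in WT and 114.3 to 122.2 in LKO (−0.54 ± 0.12, adjusted p = 0.0405, edgeR), and Nr0b2, the repressor SHP, was at 2.77 to 5.08 and 0.867 to 1.99 (−1.51 ± 0.32, adjusted p = 0.0405). Of the alternatives, 10 of 25 kept the call of Hnf4a and 16 of 25 that of Nr0b2.

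**Figure D4:**
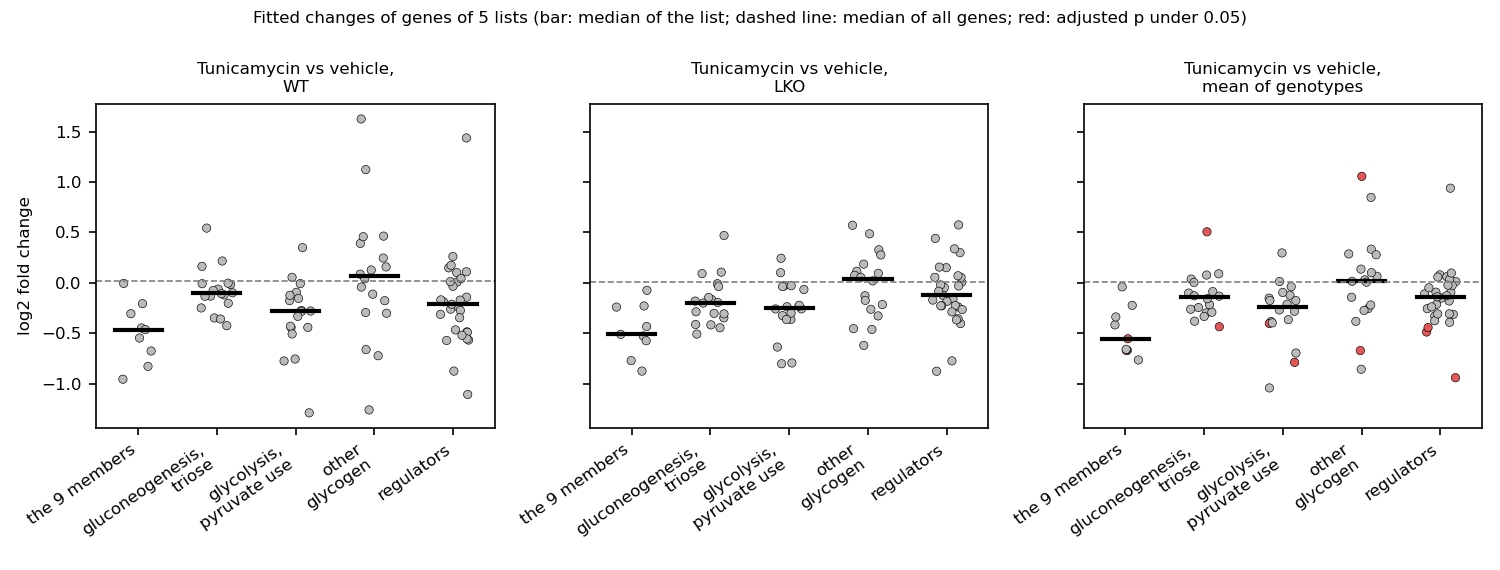
Fitted log2 fold change (vertical axis) of every tested gene of 5 lists, for tunicamycin against vehicle in WT, in LKO and averaged, with the list's median as a bar and the median of all genes as a dashed line. The 9 members have the lowest median in each panel (−0.46, −0.51 and −0.55), and the other glycogen genes lie on both sides of 0.

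Markers of cell types and liver zones moved with treatment in part, and their part in the results above was not tested. Summed CPM of 9 hepatocyte markers overlapped among all 4 groups, but Fgb, a fibrinogen chain and acute-phase gene, rose by 1.16 ± 0.25 on the log2 scale in the averaged contrast (adjusted p = 0.0190, edgeR). All 10 Kupffer cell and macrophage markers had positive estimates after tunicamycin in both genotypes, with 0 called (edgeR). Their median was 0.24 in WT, with 0 of 10 at an unadjusted p under 0.05, and 0.55 in LKO, with 7 of 10, against 4 of 10 in the averaged contrast and 0 of 10 in the interaction. Of all genes, 14.79% reached that p in WT, 12.15% in LKO, 20.2% in the averaged contrast and 4.91% in the interaction. The summed level of these markers was 54.2 to 65.8 in WT vehicle, 62.4 to 81.1 in WT tunicamycin, 42.6 to 69.5 in LKO vehicle and 67.1 to 128.5 in LKO tunicamycin samples. S100a8 and S100a9, neutrophil genes, rose by 2.51 and 2.33 (adjusted p = 0.0272 and 0.0257), from levels at or under 1.53 CPM with vehicle. Of 9 periportal genes tested, the zone where gluconeogenesis is strongest, Cyp2f2 fell by 0.53 and Asl by 0.48 (adjusted p = 0.0164 and 0.0338), with 4 of the 9 above 0 and a median of −0.23. Of 9 pericentral genes, 8 were below 0 in the averaged contrast with none called (edgeR), and the median was −0.12. There 1 of the 9 had an unadjusted p under 0.05 (20.2% of all genes). In LKO against WT after tunicamycin, 1 of the 9 periportal genes was called (edgeR; 0.861% of all genes). Stellate cell and fibroblast markers were higher in LKO than in WT with vehicle for 7 of 7 tested (summed 118.7 to 163.8 against 66.2 to 108.0). Of these, 0 were called and 4 had an unadjusted p under 0.05 (edgeR; 8.18% of all genes). Muscle markers were at 0 in every sample.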

How the data were processed

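Whole-liver RNA was sequenced in 14 libraries. The deposited gene counts are STAR output, per the names they were deposited under, and hold whole numbers of reads. The submitters' processing notes also name Trimmomatic, Cufflinks and build mm10, and versions are not given in the sources used here. The column of sense reads was used (99.5 to 99.6% of stranded reads). FPKM values deposited by the authors, scaled per length and library, served for levels between genes and as an alternative. All per-sample columns were used. FPKM names with repeated entries (811 of 24886) were left out, and 1 LKO vehicle library lists Rn45s at 0 FPKM.

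Counts were fitted in edgeR 4.0.16 (R 4.3.3) with TMM, filterByExpr by group, 1 mean per group and the quasi-likelihood test: 13 samples, 9644 genes, 9 residual degrees of freedom, a common biological coefficient of variation of 0.155. Intervals use the moderated degrees of freedom. Calls were made at 0.05 on p-values adjusted over all genes (Benjamini-Hochberg). LKO vehicle libraries 3 and 4 were summed. The depth of 1704479 to 3551398 reads without Rn45s limits genes of few reads, such as Ppp1r3c, and reads are not independent molecules. The procedure was run on simulated counts with the same spread for every gene. It recovered 87% of 100 genes changed by 1 on the log2 scale and 100% of 100 changed by 2, and called 14 unchanged genes. Smaller changes and genes of larger spread, as among the members, were not simulated. FPKM were tested with limma 3.58.1 on log2(FPKM + 1), and DESeq2 1.42.0 was an alternative for counts.

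The members and lists were chosen with earlier results of these data known. All 9 members are named. Of each wider list the genes called in a contrast are named, except that 1 periportal call between genotypes is given by count. Genes of the smallest p, planned for contrasts with none called, are not named. The averaged tunicamycin contrast, the ER stress check genes and remarks on single libraries were chosen after values were seen. Promoter windows and gene positions come from RefSeq and GENCODE on GRCm38.p6. A comparison of member proteins was planned and was not made. A gene of the glycolysis list is not reported here and was left out of that list's counts.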

Additional observations from a re-analysis of the deposited data

How the results depend on the processing

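The alternatives were other scalings (RLE, total counts, totals without Rn45s), DESeq2, no filter on low counts, strand ignored, 14 libraries kept apart, only the groups compared, limma on log2(FPKM + 1) and log2(FPKM + 0.1), a replicate block and leaving out each sample. The settings with 14 libraries, among them the replicate block, count the nearly identical LKO vehicle libraries 3 and 4 as separate samples. In the genotype contrasts and the interaction 0 members were called under every alternative run. Members called in WT were 2 without a filter (1.78% of all genes, against 0.363%) and 0 to 5 when samples were left out in turn. In LKO 1 was called (Ppp1r3b) by DESeq2, without a filter, with 14 libraries, and with the replicate block (5.67%, 0.942%, 0.0516% and 0.743% of all genes with an adjusted p, against 0.0311%), and 0 to 1 when samples were left out. In the averaged contrast, with 2 members and 416 of all genes called, there were 4 members of 810 genes with total count scaling, 5 of 764 without a filter, 4 of 668 with 14 libraries, 4 of 762 with the replicate block, 0 with either unfiltered log2 FPKM setting (19 and 34 genes), and 1 to 5 when samples were left out. Total count scaling moved the median of all genes by −0.19 in WT, −0.12 in the averaged contrast and 0.15 in LKO against WT after tunicamycin, and all 9 members stayed below that moved median with tunicamycin in both genotypes. Whether the replicate number pairs samples cannot be settled from groups this small. The 19 pairs of samples with a number in common had correlations of their deviations from −0.12 to 0.14 (median 0.023, 3 over 0.1). The 54 other pairs had correlations from −0.22 to 0.20 (median −0.014, 5 over 0.1). With that replicate block, Ppp1r3b was −0.96 in LKO (adjusted p = 0.0164, edgeR), and in LKO against WT after tunicamycin Slc2a2 was −0.13, Gys2 −0.013 and Ppp1r3c −1.972e-05, against small positive values without it. In LKO against WT with vehicle, Pck1 was 0.0015 with 14 libraries. In LKO against WT after tunicamycin, total count scaling gave Pck1 0.041, Fbp1 0.011 and Pygl 0.062; log2(FPKM + 1), with or without a minimum mean FPKM of 1, gave 0.052, 0.047 and 0.10; and log2(FPKM + 0.1) gave 0.052, 0.048 and 0.11, with Pklr at 0.0046. Leaving out samples in turn gave these ranges where a sign changed: with tunicamycin in WT, G6pc −0.84 to 0.083 and Fbp1 −0.083 to 0.018; in LKO, Fbp1 −0.21 to 0.00047, Ppp1r3c −1.04 to 0.016 and Txnip −1.12 to 0.11; in LKO against WT with vehicle, Pck1 −0.29 to 0.026, G6pc −0.42 to 0.077, Fbp1 −0.14 to 0.0056, Ppp1r3b −0.13 to 0.18 and Ppp1r3c −0.38 to 0.68; and after tunicamycin, Pck1 −0.23 to 0.095, G6pc −0.74 to 0.18, Pklr −0.59 to 0.10, Slc2a2 −0.24 to 0.53, Gys2 −0.11 to 0.33 and Pygl −0.19 to 0.11. The cause of these changes was not tested. The interaction and the averaged contrast use all groups, so for them the setting with only the groups compared is the fit reported, and Pgm1 has no value with a minimum mean FPKM.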
